A study of Homo sapiens with 22 samples.

Results

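The untreated state of H2110 xenograft tumours was described from the 6 tumours of the Vehicle group, out of 22 tumours in the series, which were chosen by their group label alone. H2110 is a human lung cancer cell line, and the title of the study names RIT1, a GTPase of the RAS family, as a target in lung adenocarcinoma. All 22 tumours had reached about 300 mm³ before dosing, were dosed orally for 3 days and carry the same genotype label, WT, with no allele named. The 6 Vehicle tumours (replicates 1, 2, 3, 5, 6 and 7) were given no drug, and total RNA was sequenced from strand-specific libraries. The other tumours received trametinib at 0.3 mg/kg or cobimetinib at 3 mg/kg, which both inhibit MEK, RMC-7977 at 10 mg/kg, which inhibits active RAS, or RMC-4550 at 30 mg/kg, which inhibits the phosphatase SHP2, with 4 tumours each. They enter only where the spread within groups is described. All tumours come from 1 cell line, the host animal is not given in the sources used here, and nothing says that the tumours came from separate animals, so the spread and the p-values below measure differences between these samples, which may be technical.

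Lung adenocarcinoma arises in the airway and alveolar epithelium, and many such tumours keep NKX2-1, the transcription factor of the lung lineage, and the surfactant genes that it drives. Tumours with low NKX2-1 often express genes of mucous or gut-like epithelium instead. A tumour grown from a cell line holds a nearly uniform human compartment within host stroma and vessels, and reads of host cells can be assigned to human genes where the sequences are alike. In bulk RNA, fewer cells of a type and less RNA per cell cannot be told apart.

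The 6 libraries held 11160546 to 17265754 counts, 78168053 in all. Of 19951 protein-coding genes, 16967 had at least 1 count in some tumour and 13408 had counts in all 6. A mean of at least 1 CPM (read counts scaled to a common library total, on library sizes scaled by the TMM method) was reached by 12533 coding genes, at least 10 CPM by 9831, at least 100 CPM by 2173 and at least 1000 CPM by 62, of which 51 are nuclear. Levels of different genes were compared as TPM, the transcript measure that also divides by the exon length. This length joins all annotated exons of a gene and can exceed that of its main transcript, so orders by TPM depend on it. All values with an error are means ± SD over the 6 tumours (n = 6).

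One library stood apart. The correlation of log2 CPM between Vehicle replicate 1 and each other Vehicle tumour was 0.902 to 0.919, against 0.968 to 0.988 among the other 5. The difference followed base composition. In Vehicle replicate 1, genes whose transcripts hold 30.2% to 40.5% G and C had a median log2 difference of 0.67 from the mean of the other 5 tumours, and genes with 57.8% to 73.9% had one of -1.15. Across 9817 genes the Spearman correlation of that difference with GC content was -0.672 in Vehicle replicate 1, and each of the other 5, set against the remaining 4 of them, gave -0.136 to 0.173. Mitochondrially encoded genes took 4.80% of the counts of Vehicle replicate 1, against 8.78% to 11.8% in the others, and ribosomal protein genes 7.37%, against 3.58% to 4.34%. The numbers of genes varying between tumours are given with and without this library, while means ± SD include it. Where its value lies far from the others it shifts the mean and widens the SD. EEF1A1, for example, had 6350 ± 2549 CPM with it and 5325 ± 498 CPM without it.

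**Figure D1:**
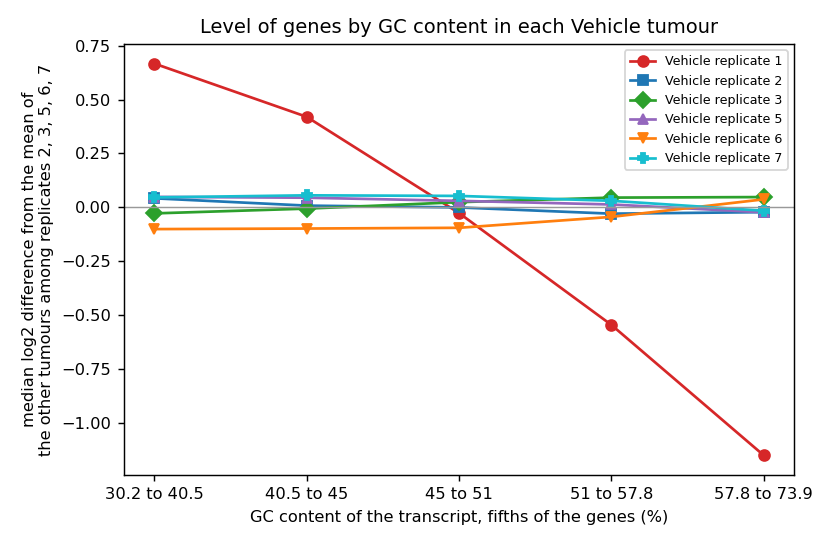
Median log2 difference of each Vehicle tumour from the mean of the other tumours among replicates 2, 3, 5, 6 and 7 (y axis), for 9817 genes in 5 classes of transcript GC content (x axis, percent). The line of Vehicle replicate 1 runs down to -1.15 at 57.8% to 73.9% GC while the other 5 lines stay close to 0.

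The most abundant transcripts were mitochondrial, and translation factors, metabolic enzymes, mucins and cytoskeletal genes were among the largest nuclear totals. MT-CO1, a subunit of cytochrome oxidase, had the highest CPM, 8231 CPM in Vehicle replicate 1 and 21350 to 26240 CPM in the other 5. The largest nuclear coding totals belonged to EEF1A1 (6350 ± 2549 CPM) and EEF2 (2837 ± 662 CPM), both elongation factors of translation, AKR1C2 (4523 ± 1050 CPM), an aldo-keto reductase, and MUC4 (2653 ± 938 CPM), a membrane mucin. They were followed by GAPDH (2512 ± 291 CPM) of glycolysis, CPS1 (2229 ± 462 CPM), the mitochondrial carbamoyl phosphate synthetase known from the liver urea cycle, ACTB (2037 ± 663 CPM), the cytoskeletal beta actin, and KRT17 (2005 ± 945 CPM), a keratin of basal and stressed epithelium. The gel-forming airway mucins MUC5AC (1930 ± 921 CPM) and MUC5B (1658 ± 849 CPM) were also among the 15 largest. Reads of EEF1A1, AKR1C2 and KRT17 can be shared with near-identical copies or paralogs, so their totals are uncertain.

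Per exon length the order changed. EEF1A1 (3400 ± 1587 TPM) and FTL (3292 ± 816 TPM), the light chain of the iron store ferritin, led the nuclear coding genes, ahead of RPS27 (2876 ± 1200 TPM), a ribosomal protein, TMSB10 (2708 ± 557 TPM), which binds actin monomers, and GAPDH (2639 ± 268 TPM). AKR1C2 kept a place among the first 15 with 2215 ± 638 TPM, and the calcium-binding proteins S100A9 (2207 ± 1561 TPM) and S100A6 (1975 ± 576 TPM) joined it. The long mucins dropped back, MUC4 to 386 TPM, MUC5AC to 340 TPM and MUC5B to 276 TPM. Of the 50 genes with the highest CPM in each tumour, 20 were common to all 6 tumours and 31 to the 5 without Vehicle replicate 1. Ranked by TPM, 31 of the first 50 were common to all 6.

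**Figure D2:**
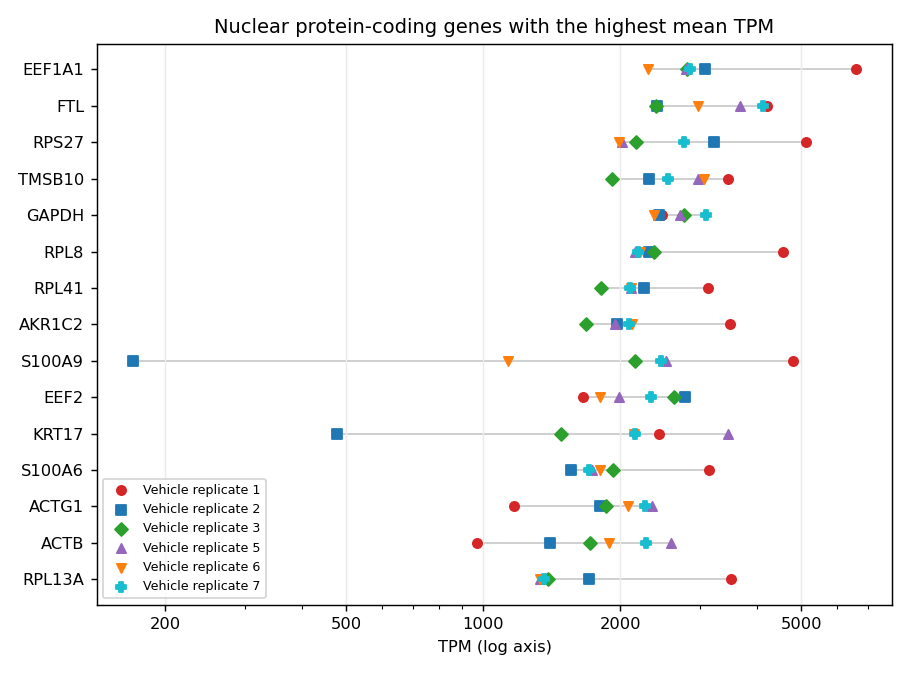
TPM (log axis) of the 15 nuclear protein-coding genes with the highest mean TPM, 1 point for each of the 6 Vehicle tumours. S100A9 and KRT17 have points far to the left for Vehicle replicate 2, and EEF1A1, RPS27, RPL8 and RPL13A have the point of Vehicle replicate 1 far to the right.

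The tumours had the keratin pattern of simple epithelium, with KRT17 and KRT6A, keratins of basal and stressed epithelium, added. In TPM the order was KRT17 (2025), KRT19 (1137), KRT7 (1101), KRT8 (786), KRT18 (504) and KRT6A (311). All 18 listed genes of simple epithelium had a mean of at least 1 CPM, a level that 62.9% of coding genes outside the mitochondrial and Y chromosomes reached, and their summed level was 6560 ± 395 CPM. EPCAM, the epithelial adhesion molecule, was at 447 ± 50.6 CPM, and CDH1, the adherens junction cadherin, at 179 ± 48.8 CPM. KRT7 had 1370 to 1590 CPM, the narrowest range of these keratins. KRT17 had 2228, 480, 1579, 3356, 2255 and 2133 CPM in Vehicle replicates 1, 2, 3, 5, 6 and 7. Its level was low in Vehicle replicate 2 alone. Other basal and squamous markers differed in level. TP63, the basal transcription factor, had 55.7 ± 16.8 CPM, KRT6A 287 ± 143 CPM and KRT16 58.6 ± 32.8 CPM. KRT5, the usual companion of TP63, had 0.762 ± 0.558 CPM and KRT14 2.82 ± 1.64 CPM. Of 15 basal and squamous genes, 12 had a mean of at least 1 CPM, against 62.9% of coding genes.

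Mucous genes were expressed in all 6 tumours. Among the 17 mucin genes, MUC4, MUC5AC, MUC1 (338 TPM), MUC5B and MUC16 (57.6 TPM) were far above the sixth, MUC20 (11.7 TPM). AGR2, which folds mucins in the endoplasmic reticulum, had 790 ± 179 CPM, TFF1, a trefoil peptide secreted with mucin, 211 ± 60.8 CPM, and SPDEF, the goblet cell transcription factor, 90.4 ± 35.4 CPM. Of 14 goblet and mucous genes, 11 reached a mean of 1 CPM, against 62.9% of coding genes. MUC5AC had 146 CPM in Vehicle replicate 1 and 1759 to 2561 CPM in the other 5, and MUC5B had 128 CPM against 1580 to 2719 CPM. The transcripts of MUC5AC and MUC5B hold 60.3% and 64.5% G and C, in the class of genes that was lowest in Vehicle replicate 1, so its low mucin values and its base composition cannot be told apart.

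Genes of ciliated cells were detected as well. FOXJ1, the master regulator of motile cilia, had 61.7, 148, 100, 121, 207 and 129 CPM in Vehicle replicates 1, 2, 3, 5, 6 and 7, and 8 of 10 ciliated genes reached a mean of 1 CPM, against 62.9% of coding genes. Vehicle replicate 6 was highest for FOXJ1 and had a median log2 deviation of 0.57 over the 7 tested ciliated genes from the mean of the 5 tumours without Vehicle replicate 1, against -0.01 over all genes. Of 11 club and secretory genes 3 reached 1 CPM, led by the protease inhibitor SLPI (102 ± 12.4 CPM), and SCGB1A1, which defines club cells, had 1 count in all 6 tumours together. Of 14 neuroendocrine and tuft genes 5 reached 1 CPM, led by CALCA (39.2 ± 9.72 CPM), which encodes calcitonin, and NEUROD1 and GRP had no count.

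The genes that define alveolar type 2 cells were low. NKX2-1 had 2.01, 5.65, 0.357, 1.45, 6.15 and 1.06 CPM in Vehicle replicates 1, 2, 3, 5, 6 and 7, a mean of 2.78 ± 2.48 CPM. The values in Vehicle replicates 2 and 6 were higher than the rest. SFTPC, the surfactant protein most typical of type 2 cells, had 1 to 3 counts per tumour. SFTPB, another surfactant protein, had 214 counts (16.9 CPM) in Vehicle replicate 6 and 5 to 14 counts (at most 1.13 CPM) in the others. SFTPA1 and SFTPA2, whose sequences are nearly identical, had 84 and 49 counts in that tumour and at most 10 and 12 elsewhere. Vehicle replicate 6 therefore held 3 surfactant transcripts above the other tumours, at low counts. The listed genes that were abundant, MUC1 (513 ± 147 CPM) and LPCAT1 (378 ± 121 CPM), which remodels phospholipids, are also expressed outside type 2 cells. Of all 17 listed type 2 genes 10 reached 1 CPM, close to the 62.9% of coding genes that did, so the low values describe the defining genes and not the list.

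**Figure D3:**
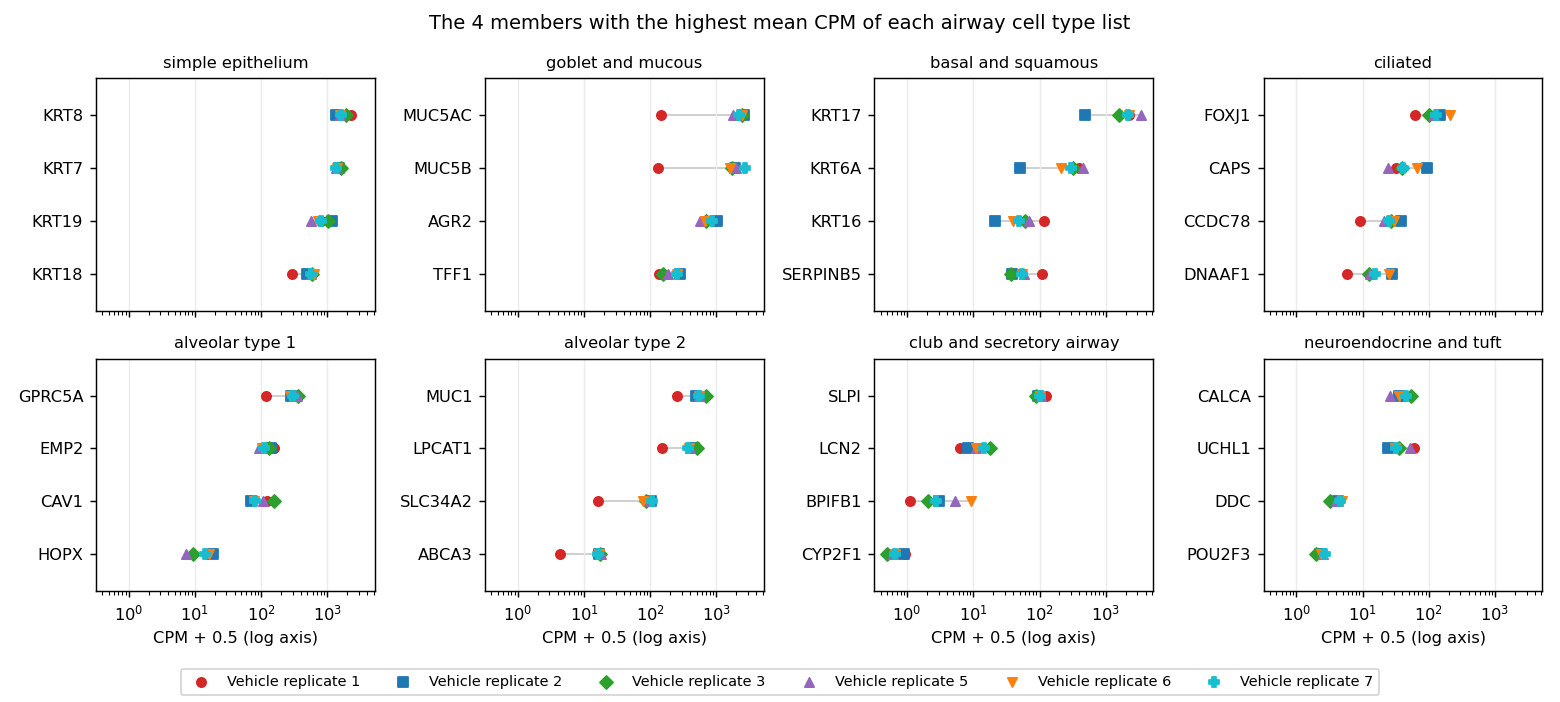
CPM + 0.5 (log axis) in each of the 6 Vehicle tumours of the 4 members with the highest mean CPM in 8 epithelial gene lists. Simple epithelium and mucous genes lie furthest right, and Vehicle replicate 1 is far to the left of the other 5 tumours for MUC5AC, MUC5B and SLC34A2.

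The deposited annotation names 1542 transcription factors, of which 945 had a mean of at least 1 CPM and 217 (14.1%) had no count. These shares were close to those of all coding genes outside the mitochondrial and Y chromosomes, 62.9% and 14.8%. By TPM the first 5 were XBP1 (690), a factor of secretory cells, ATF4 (639), a factor of amino acid stress, CNBP (582), HMGN3 (579.9) and YBX1 (380.1), a cold shock domain protein. ETS2 (357), FOSL2 (277), HIF1A (162) and KLF5 (152) were among the first 25. FOXA1 was at 181 TPM, but its paralog FOXA2 had no count in any tumour, which at the pooled depth allows up to 0.0384 CPM (3 counts, counting error only). Of 20 foregut and gut genes 4 reached 1 CPM, led by FOXA1 (232 ± 74.1 CPM) and GATA6 (6.92 ± 1.55 CPM), and CDX1 and SOX17 had no count either. The highest HOX gene was HOXA5 (12.3 TPM), and 14 of 39 HOX genes had no count.

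A few genes known from the liver were among the most abundant of all. CPS1 was accompanied by FGG (1232 ± 355 CPM) and FGA (1121 ± 426 CPM), which encode the gamma and alpha chains of fibrinogen. FGB, the beta chain, had 16.2, 18.2, 8.39, 16.5, 51.5 and 23.1 CPM in Vehicle replicates 1, 2, 3, 5, 6 and 7. Its highest value was in Vehicle replicate 6. Per exon length it had 25.6 TPM, against 1085 TPM for FGG and 893 TPM for FGA. ALB, the albumin gene, had 2 counts in all, and TTR, APOA1, APOA2 and APOH had none, so the liver list was represented by 5 of 16 genes at 1 CPM or more.

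RIT1, HRAS and NRAS were expressed in all 6 tumours. RIT1 had 142, 122, 115, 119, 95.7 and 116 CPM in Vehicle replicates 1, 2, 3, 5, 6 and 7. The values lay close together, with a mean of 118 ± 14.8 CPM and 95.03 TPM. Per exon length it was above its relatives HRAS (74.9 TPM) and NRAS (62.9 TPM). HRAS had 44.3 ± 6.08 CPM, and NRAS 162 CPM in Vehicle replicate 1 against 58.1 to 81.8 CPM in the others. PTPN11, which encodes SHP2, had 96.5 ± 16.6 CPM, and MAP2K1, which encodes the kinase MEK1, had 52.3 ± 8.26 CPM. LZTR1, the adaptor that marks RIT1 and other RAS proteins for degradation, had 21.3 ± 6.48 CPM.

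Among receptor kinases, ERBB2 (103 TPM) and MET (74.5 TPM) stood above EGFR (43.0 TPM) and ERBB3 (36.6 TPM). ERBB2 had 68.7 CPM in Vehicle replicate 1 and 304 to 538 CPM in the others, while EGFR had 125 CPM against 145 to 208 CPM. The fusion-prone receptors were close to absent: over all 6 tumours ALK had 11 counts, ROS1 29, RET 5, NTRK2 8 and NTRK3 3. FGFR2 had 7 counts, while FGFR3 had 25.0 ± 13.2 CPM. Of 39 listed oncogenes 27 reached 1 CPM, close to the 62.9% of coding genes that did. MYC had 110 ± 24.8 CPM while MYCN had 1 count, and CCND1 had 153 ± 34.5 CPM while CCND2 had 16 counts in Vehicle replicate 1 and 1 in the rest together. TERT, the telomerase subunit, had 0 to 1.61 CPM, and TERC, its short RNA, had no count in these libraries. U2AF1 had 2 to 532 counts, and its reads may be shared with a near-identical copy, so its level is uncertain.

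All 31 listed tumour suppressors reached 1 CPM, against 62.9% of coding genes. CDKN2A, which encodes p16 and ARF and is often deleted in lung cancer, had 166 ± 51.3 CPM, KEAP1, the brake on NRF2, 155 ± 28.7 CPM and SMARCA4 158 ± 61.1 CPM. STK11, the LKB1 kinase, had 20.1 ± 5.00 CPM, and SMARCA4 was at 34.9 CPM in Vehicle replicate 1 against 166 to 195 CPM in the others. Expression of a transcript does not show that its protein is intact, since no sequence variant was examined. The lowest of the list per exon length was FHIT (1.46 TPM), at a common fragile site.

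Outputs of the pathway were uneven in level. The phosphatase DUSP4 had 181 TPM (420 ± 72.0 CPM), while DUSP6, the ERK phosphatase, had 12.6 TPM (18.5 ± 6.63 CPM) and SPRY4, a feedback inhibitor, 1.62 TPM (3.40 ± 1.36 CPM). EPHA4 had 5 counts, all in Vehicle replicate 1. The ligands EREG (46.2 ± 24.5 CPM), TGFA (39.1 ± 5.58 CPM), EGF (38.2 ± 5.65 CPM) and AREG (25.5 ± 18.7 CPM) were all present with EGFR.

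Targets of NRF2, the antioxidant factor that KEAP1 restrains, were abundant. All 23 reached 1 CPM, against 62.9% of coding genes, and their summed level was 9102 ± 1587 CPM. In CPM AKR1C2 came first, followed by AKR1C1 (602 ± 171 CPM), TXNRD1 (511 ± 124 CPM), TKT (480 ± 60.3 CPM), AKR1C3 (465 ± 142 CPM) and NQO1 (401 ± 78.5 CPM). AKR1C1, AKR1C2 and AKR1C3 are paralogs of similar sequence, so the split among them is uncertain.

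Genes of antigen presentation ranged widely in level. B2M, the light chain of class I, had 409 ± 156 CPM and HLA-E 55.4 ± 6.83 CPM. HLA-B had 2 to 12 counts per tumour. HLA-C had 39 counts in Vehicle replicate 6 and 0 to 2 in each of the others. These genes are highly polymorphic and reads of alleles that differ from the reference may not be assigned, so low counts here are uncertain. Of 10 class II genes, 6 had no count, among them HLA-DRA and HLA-DRB1, and CIITA, their activator, had 1.33 ± 0.612 CPM. The cancer-testis antigens MAGEA6 (94.9 ± 16.0 CPM), MAGEA3 (67.2 ± 11.5 CPM), MAGEA1 (37.4 ± 7.22 CPM) and MAGEA12 (30.0 ± 8.80 CPM) were expressed in all 6 tumours, although MAGEA3 and MAGEA6 share most of their sequence. The other members were mostly silent, with 11 of 23 at 0. CD274, which encodes PD-L1, had 24.4 ± 7.36 CPM.

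Most markers of non-tumour cells were low. PTPRC, which defines white blood cells, had 1 to 7 counts, and TYROBP, MS4A1 and NKG7 had none. COL1A2 had 5 counts, COL3A1 15 and VIM 15 in all 6 tumours, although COL1A1, the partner chain of COL1A2 in type I collagen, had 19.3 CPM in Vehicle replicate 1 and 169 to 309 CPM in the others. Of the 9 red cell genes 5 had no count and none reached 1 CPM. PECAM1 had 30.7 ± 10.4 CPM and CLDN5 81.5 ± 60.6 CPM, while CDH5 (0.928 ± 0.609 CPM) and TEK (0.546 ± 0.361 CPM), also endothelial genes, were below 1 CPM. A mean of 1 CPM was reached by 3 of 12 endothelial, 4 of 15 muscle and 5 of 10 skin and nerve genes, against 62.9% of coding genes. The mesenchymal regulators SNAI2, TWIST1 and TWIST2 had no count. S100A8 and S100A9, which stand in the white blood cell list, are also made by stressed epithelium, and CD14 (12.02 ± 3.21 CPM) and LAPTM5 (5.39 ± 3.11 CPM) came next in CPM among its remaining members after LCP1 (26.5 ± 13.8 CPM). Whether host reads contribute to any of these values was not tested.

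Of all coding genes 2984 (14.96%) had no count in any of the 6 tumours, and 3444 had none in the 5 without Vehicle replicate 1. Such genes were common in families known from specialised tissues. No count was found for 311 of 386 olfactory receptors (80.6%), 35 of 39 beta defensins (89.7%), 17 of 18 late cornified envelope genes (94.4%), 70 of 94 keratin-associated proteins (74.5%) and 11 of 17 type I interferons (64.7%). By contrast 1 of 84 cytosolic ribosomal protein genes, 1 of 48 nuclear genes of respiratory complex I and 2 of 40 proteasome subunits had none. Of 41 CC and CXC chemokines 19 had no count and 9 reached 1 CPM.

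The spread between tumours was first set against counting error alone, a low bar for separate tumours. A goodness-of-fit test of edgeR asked, for each of 13720 genes with enough counts, whether the 6 tumours differed by more than sampling of counts allows, and 12819 (93.4%) passed a Benjamini-Hochberg adjusted p of 0.05. Without Vehicle replicate 1, 11661 of 14351 genes (81.3%) passed. The biological coefficient of variation was 30.0% with all 6 tumours and 18.3% without Vehicle replicate 1. For coding genes at 10 to 100 CPM the median coefficient of variation was 23.6%, 12.8% without Vehicle replicate 1, and counting error alone would give 4.57%. The steadiest coding genes at 50 CPM or more were JRKL (56.8 ± 1.42 CPM), UBE2Q1 (254 ± 6.51 CPM), a ubiquitin-conjugating enzyme, CDK5RAP2 (134 ± 3.44 CPM), a centrosome protein, VOPP1 (134 ± 3.66 CPM) and PTTG1IP (304 ± 10.8 CPM), with coefficients of 2.49% to 3.56%.

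A stricter test compared each gene with the dispersion trend of genes at its level. With all 6 tumours 435 of 13720 genes (3.17%) varied more than the trend, and without Vehicle replicate 1 362 of 14351 (2.52%), of which 110 were the same genes. The count depended on the method: DESeq2 marked 8 genes as dispersion outliers, all within the 435 and 7 of them among the 20 named below, and a trend taken from all 22 tumours left 226. Of the 325 genes called with all 6 tumours and not without Vehicle replicate 1, that tumour was the lowest in 320 and the highest in 5. Over all 13720 tested genes it was the lowest in 5059 and the highest in 5148. The 325 were selected as genes whose call needs that tumour, so its place at an end follows from the choice, but not the direction. Their median GC content was 61.8%, against 47.9% for all tested genes. Of these 325 genes 293 were coding with a mean of at least 4 CPM, and those with the largest ratios were SLC34A3, FCGBP, HSPG2, MUC5B, COL1A1, POLR2A, MUC5AC, MEGF6, PKD1 and PRR12. POLR2A, the largest subunit of RNA polymerase II, had 17.3 CPM in Vehicle replicate 1 and 180 to 274 CPM in the other 5. MEGF6 had 2.98 CPM against 36.5 to 41.8 CPM, and adjusted p was 0.000383 with all 6 tumours and 1.00 without that tumour. HSPG2, which encodes perlecan of the basement membrane, had 19.3 CPM against 162 to 295 CPM. These 10 genes have transcripts of 56.1% to 67.8% G and C.

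Among genes called both ways, 92 were coding with a mean of at least 4 CPM, and the 20 with the largest ratios are described next. In 17 of them Vehicle replicate 2 was the highest (11 genes) or the lowest (6 genes) of the 6 tumours. Vehicle replicate 1 was at an end in 15 of them, the lowest in 12 and the highest in 3. Among all 13720 tested genes, Vehicle replicate 1 was the lowest in 36.87% and the highest in 37.52%. Vehicle replicate 2 was the lowest in 15.59% of all tested genes and the highest in 15.03%. A place at an end was therefore common for Vehicle replicate 1 in any tested gene, and less common for Vehicle replicate 2. Of the 362 genes called without Vehicle replicate 1, the tumour furthest from the others was Vehicle replicate 2 in 229, Vehicle replicate 3 in 62, Vehicle replicate 5 in 41, Vehicle replicate 6 in 19 and Vehicle replicate 7 in 11.

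**Figure D4:**
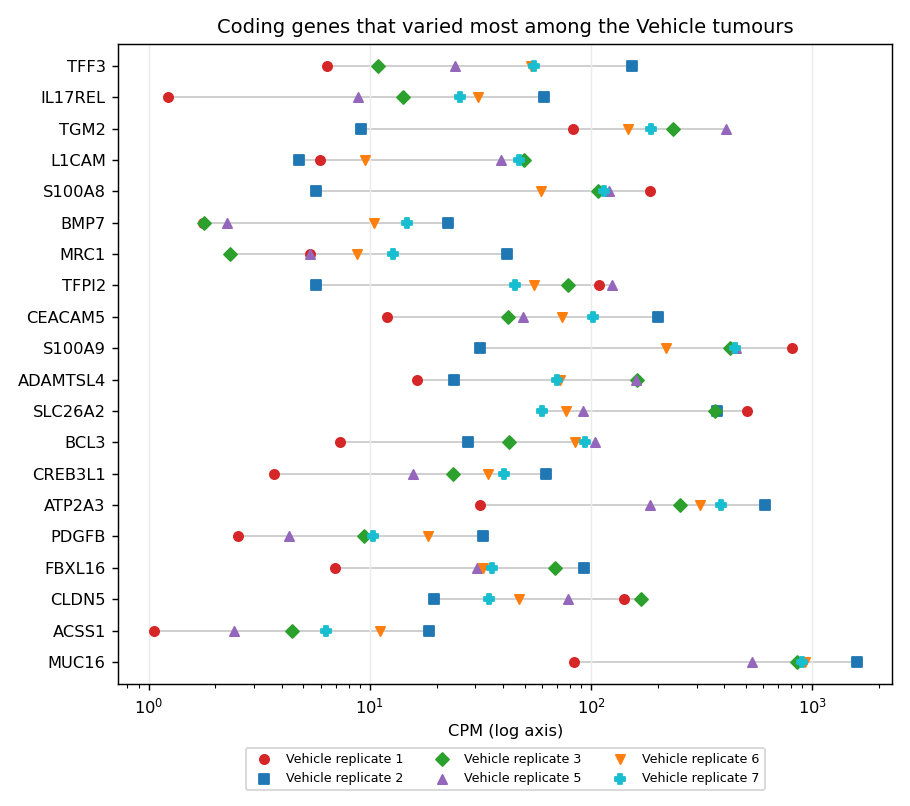
CPM (log axis) in each of the 6 Vehicle tumours of the 20 coding genes that varied most beyond the trend both with and without Vehicle replicate 1. Vehicle replicate 2 is at the left end for TGM2, L1CAM, S100A8, TFPI2, S100A9 and CLDN5 and at the right end for TFF3, IL17REL, BMP7, MRC1, CEACAM5 and MUC16.

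The genes that were highest in Vehicle replicate 2 had varied functions. TFF3, a trefoil peptide of goblet cells, had 6.39, 152, 10.9, 24.3, 53.5 and 55.2 CPM in Vehicle replicates 1, 2, 3, 5, 6 and 7. The range was 23.8-fold, and the adjusted p against the trend was 4.80e-10 with all 6 tumours and 5.95e-27 without Vehicle replicate 1. CEACAM5, the carcinoembryonic antigen, had 11.9, 200.2, 42.2, 49.2, 73.5 and 102 CPM in the same order. It was highest in Vehicle replicate 2, with Vehicle replicates 6 and 7 next, as TFF3 was. IL17REL, an interleukin 17 receptor-like gene, had 61.3 CPM in Vehicle replicate 2 against 1.23 to 30.7 CPM. BMP7, a bone morphogenetic protein, had 22.6 CPM in Vehicle replicate 2, 10.4 and 14.7 CPM in Vehicle replicates 6 and 7, and 1.75 to 2.26 CPM in Vehicle replicates 1, 3 and 5. These groups of tumours are descriptions of the values and carry no label.

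Further genes were highest in the same tumour. MUC16, the membrane mucin CA125, had 1599 CPM in Vehicle replicate 2, 537 to 932 CPM in Vehicle replicates 3, 5, 6 and 7 and 83.7 CPM in Vehicle replicate 1. ATP2A3, a calcium pump of the endoplasmic reticulum, had 609 CPM against 31.4 to 386 CPM, CREB3L1, a stress sensor of the secretory pathway, 62.4 CPM against 3.68 to 40.5 CPM, and MRC1, the mannose receptor, 41.6 CPM against 2.32 to 12.7 CPM. MRC1 is best known from macrophages. PTPRC had 1 count in Vehicle replicate 2, and the 16 white blood cell markers other than S100A8 and S100A9 summed to 28.7 CPM there, against 38.8 to 72.1 CPM in the other tumours. Of the 4 of these that were tested, 3 were lowest there among the 5 tumours without Vehicle replicate 1. S100A8 and S100A9 were left out of this sum after their values were seen, and the part of host cells in the MRC1 value was not tested. PDGFB, a growth factor for pericytes, had 32.4 CPM against 2.54 to 18.3 CPM. FBXL16 had 93.3 CPM against 6.92 to 68.7 CPM, and ACSS1, an acetyl-CoA synthetase of mitochondria, 18.6 CPM against 1.05 to 11.1 CPM. In 10 of the 11 genes that were highest in Vehicle replicate 2, the lowest tumour was Vehicle replicate 1, the library that stood apart, and in MRC1 it was Vehicle replicate 3.

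The opposite set was lowest in Vehicle replicate 2. TGM2, tissue transglutaminase, had 82.4, 9.12, 234, 408, 147 and 187 CPM in Vehicle replicates 1, 2, 3, 5, 6 and 7, a 44.7-fold range. S100A8 had 184, 5.73, 107, 121, 59.2 and 114 CPM and its partner S100A9 809, 31.5, 423, 452, 219 and 449 CPM in the same order. Both chains of calprotectin ranked the 6 tumours in the same order, lowest in Vehicle replicate 2, next lowest in Vehicle replicate 6 and highest in Vehicle replicate 1. TFPI2, an inhibitor of serine proteases, had 5.73 CPM in Vehicle replicate 2 against 45.1 to 124 CPM. Without Vehicle replicate 2 the calls of TGM2 (adjusted p 0.168), S100A8 (0.896), MRC1 (0.289), TFPI2 (0.718) and S100A9 (0.654) were lost by the edgeR test, so 1 tumour decides them. The other 15 of the 20 genes kept theirs. No setting left out Vehicle replicates 1 and 2 together, so a call kept without Vehicle replicate 2 can still rest on Vehicle replicate 1.

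Other variable genes followed different orders. L1CAM, a neural adhesion molecule, had 49.7, 39.2 and 47.0 CPM in Vehicle replicates 3, 5 and 7 and 4.76 to 9.46 CPM in Vehicle replicates 1, 2 and 6. ADAMTSL4, a matrix protein, had 161 and 160.4 CPM in Vehicle replicates 3 and 5 and 16.3 to 72.1 CPM in the others. BCL3, a nuclear partner of NF-kappaB, had 105, 84.8 and 94.3 CPM in Vehicle replicates 5, 6 and 7 and 7.36 to 42.6 CPM in Vehicle replicates 1, 2 and 3. CLDN5, a tight junction claudin, had 141 and 169 CPM in Vehicle replicates 1 and 3 and 19.5 to 78.4 CPM in the others.

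SLC26A2, a sulfate transporter, split the tumours another way. It had 507, 373 and 363 CPM in Vehicle replicates 1, 2 and 3 and 92.2, 77.3 and 59.8 CPM in Vehicle replicates 5, 6 and 7, and the adjusted p was 2.15e-05 with all 6 tumours and 2.01e-23 without Vehicle replicate 1. PSCA, PER1 and FKBP5 were picked after their values were seen because they shared this order among Vehicle replicates 2 to 7. PSCA, a prostate and gut surface antigen, had 165 and 217 CPM in Vehicle replicates 2 and 3 and 41.4 to 54.3 CPM in Vehicle replicates 5, 6 and 7. PER1, a circadian clock gene, had 98.6 and 141 CPM against 35.2 to 42.7 CPM, and FKBP5, a glucocorticoid-induced chaperone, 91.9 and 105 CPM against 34.8 to 49.6 CPM. Vehicle replicate 1 was at 64.6 CPM for PSCA, 19.0 CPM for PER1 and 85.2 CPM for FKBP5. The labels give no date, batch or cage that would separate Vehicle replicates 1 to 3 from 5 to 7.

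Promoters are shown for 4 of these genes, as windows of 300 bases with 250 before the annotated start and 50 after it, from RefSeq on GRCh38.p14. S100A8 and S100A9 shared their order of tumours and lie close together on chromosome 1, TFPI2 shared the low value in Vehicle replicate 2, and SLC26A2 had the separate order. Of the 20 genes 12 had a promoter in the table. Capitals mark a match, on either strand, to 1 of 5 motifs: TATAAA (the TATA box), TGANTCA (the AP-1 site), CACGTG (the E-box of clock and MYC factors), TGACGTCA (the cyclic AMP response element) and 1 form of the kappaB site of NF-kappaB. Other forms of the kappaB site were not searched and stay in lower case.
S100A9, chr1:153357604-153357903, plus strand: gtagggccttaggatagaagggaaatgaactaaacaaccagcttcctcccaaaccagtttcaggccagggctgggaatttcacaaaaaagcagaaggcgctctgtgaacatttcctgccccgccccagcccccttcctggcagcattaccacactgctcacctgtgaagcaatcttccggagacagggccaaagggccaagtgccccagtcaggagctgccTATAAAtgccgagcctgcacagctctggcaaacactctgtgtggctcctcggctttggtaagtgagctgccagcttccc
S100A8, chr1:153391139-153391438, minus strand: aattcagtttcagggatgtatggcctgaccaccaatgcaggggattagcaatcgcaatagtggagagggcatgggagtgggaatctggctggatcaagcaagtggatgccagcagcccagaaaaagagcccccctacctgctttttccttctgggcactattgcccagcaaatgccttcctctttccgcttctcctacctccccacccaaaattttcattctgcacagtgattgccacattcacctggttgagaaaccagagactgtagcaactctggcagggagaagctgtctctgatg
TFPI2, chr7:93890704-93891003, minus strand: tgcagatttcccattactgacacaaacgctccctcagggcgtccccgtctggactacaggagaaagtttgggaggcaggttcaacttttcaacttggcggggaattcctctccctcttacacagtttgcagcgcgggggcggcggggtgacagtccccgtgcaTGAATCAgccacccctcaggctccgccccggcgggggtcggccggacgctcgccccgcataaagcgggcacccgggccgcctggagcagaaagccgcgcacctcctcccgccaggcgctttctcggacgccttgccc
SLC26A2, chr5:149960508-149960807, plus strand: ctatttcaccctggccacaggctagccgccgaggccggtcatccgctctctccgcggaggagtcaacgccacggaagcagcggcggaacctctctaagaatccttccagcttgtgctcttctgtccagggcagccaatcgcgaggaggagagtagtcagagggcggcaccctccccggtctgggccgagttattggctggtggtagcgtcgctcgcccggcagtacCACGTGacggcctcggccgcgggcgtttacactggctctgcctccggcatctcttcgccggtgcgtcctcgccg

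S100A9 held TATAAA with its first base 29 bases before the start, and S100A8 held none of the 5 motifs. TFPI2 held TGANTCA, with A in the middle, 87 bases before the start, and SLC26A2 held CACGTG 24 bases before it. CACGTG also stood in the windows of CEACAM5 and PER1. Among all 35116 promoter windows, 11.5% held TATAAA, 7.71% TGANTCA, 7.26% CACGTG, 1.85% TGACGTCA and 1.91% the searched form of the kappaB site. A match describes the letters of the window and says nothing of binding.

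Gene groups varied along the same lines. Among the 5 tumours without Vehicle replicate 1, 2.52% of all tested genes varied beyond the trend, and any tested gene was lowest in Vehicle replicate 2 in 23.7% of cases and highest in 23.1%, and in Vehicle replicate 5 lowest in 19.85% and highest in 22.2%. Of 23 cholesterol synthesis genes 10 were called, and 16 were lowest in Vehicle replicate 2. HMGCS1, which commits acetyl-CoA to the pathway, had 852, 200.2, 563, 505, 265 and 385 CPM in Vehicle replicates 1, 2, 3, 5, 6 and 7, and IDI1, the isomerase of its middle steps, 652, 124, 435, 350, 160 and 192 CPM. Vehicle replicates 2 and 6 were the lowest for both. The median log2 deviation of the list from the mean of the 5 tumours was -0.53 in Vehicle replicate 2 and -0.28 in Vehicle replicate 6, against 0.46 in Vehicle replicate 3, and over all genes it lay between -0.01 and 0.02.

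Vehicle replicate 2 was also lowest in 19 of 22 mitosis genes, 9 of 9 tested histone genes, 9 of 10 inflammatory genes, 7 of 9 MAPK output genes, 5 of 7 EGF receptor ligands and 14 of 23 NRF2 targets. It was the highest of the 5 in 2 MAPK output genes, 1 EGF receptor ligand and 1 NRF2 target. The MAPK output list summed to 728 CPM there, against 734.5 to 889 CPM in Vehicle replicates 3, 5, 6 and 7. None of the 22 mitosis genes was called against the trend, and their median deviation was -0.31 in Vehicle replicate 2 and 0.28 in Vehicle replicate 5, which was highest in 18 of them. In 7 of 9 MAPK output genes Vehicle replicate 5 was the highest of the 5, against 22.2% of all genes, with DUSP6 at 26.2 CPM there, 8.07 CPM in Vehicle replicate 2 and 13.2 to 21.7 CPM in Vehicle replicates 3, 6 and 7. AREG had 60.0 CPM in Vehicle replicate 5 and 6.21 CPM in Vehicle replicate 2, and EREG 82.9 and 9.52 CPM. IL6 had 233 counts (13.5 CPM) in Vehicle replicate 5 and 1 to 33 in the others.

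Hypoxia genes ran the other way. Of 14 tested, 9 were highest in Vehicle replicate 2, 7 were lowest in Vehicle replicate 5, against 19.85% of all genes, and 5 were called. NDRG1, induced by low oxygen, had 369, 1838, 1291, 847, 816 and 1581 CPM in Vehicle replicates 1, 2, 3, 5, 6 and 7, EGLN3, an oxygen-sensing hydroxylase, had 160, 314, 235, 124, 172 and 161 CPM, and VEGFA, the vessel growth factor, 111, 327, 258, 224, 285 and 275 CPM. For all 3 the value in Vehicle replicate 2 was the highest. Of 10 tested mucous genes 7 were highest in that tumour as well, and of 9 tested basal and squamous genes 5 were lowest and 5 were called. KRT6A had 49.5 CPM in Vehicle replicate 2 and 213 to 456 CPM in the others, and the adjusted p of KRT17 was 0.0824 with all 6 tumours and 5.07e-10 without Vehicle replicate 1.

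**Figure D5:**
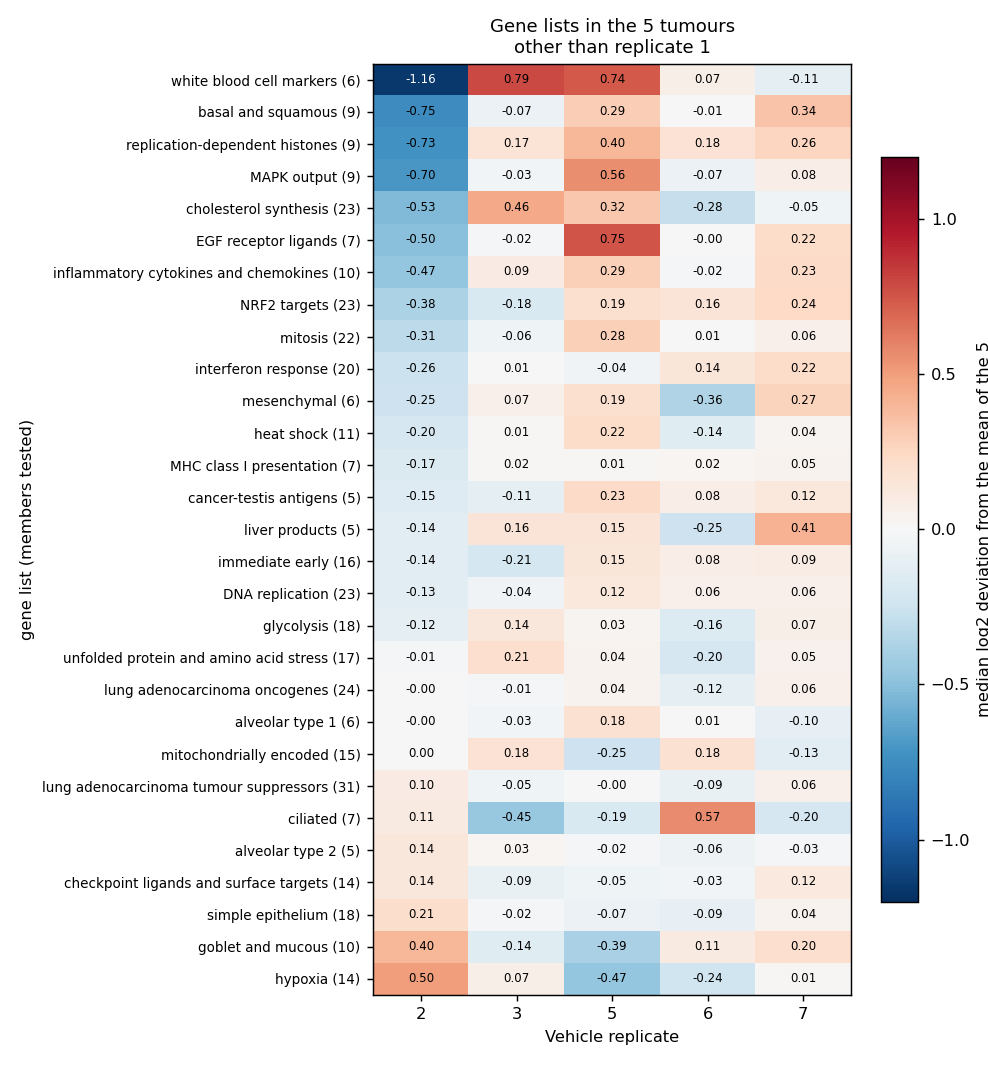
Median log2 deviation of 29 gene lists from the mean of the 5 Vehicle tumours other than replicate 1 (colour and number), with the number of members tested in brackets after each name. Vehicle replicate 2 is the lowest for the basal, histone, MAPK output and cholesterol lists and the highest for the hypoxia and mucous lists, and some genes stand in more than 1 list.

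The 20 most variable genes also varied within the drug groups. Their median SD of log2 CPM was 1.44 in the Vehicle group, against 0.393 over all 17652 genes with enough counts in the series. In groups of 4 tumours each it was 1.09 (0.318 over all genes) with RMC-7977, 1.19 (0.350) with RMC-4550, 1.21 (0.638) with trametinib and 0.525 (0.264) with cobimetinib. The SD was above the median of all genes for all 20 genes in the Vehicle and RMC-7977 groups and for 19 of them in each of the other 3 groups. The genes were chosen for their spread in the Vehicle group, so only the drug groups are independent of that choice. TFF3 spanned 5.37 to 99.4 CPM with RMC-7977 and 15.2 to 109 CPM with RMC-4550, and S100A9 91.5 to 3910 CPM with trametinib and 146 to 387 CPM with cobimetinib. The spread within the cobimetinib group was the smallest of the 5 groups both for these genes and for all genes.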

How the data were processed

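RNA was sequenced from total RNA of 22 H2110 xenograft tumours, and the 6 Vehicle tumours were analysed. The authors deposited whole-number read counts for 58735 genes. The submitters' processing notes name hg38 as the genome, HISAT2 (2.0.5), fastp, featureCounts (1.5.0-p3), edgeR (3.22.5) and DESeq2 (1.20.0). How strand, multi-mapping reads and host reads were handled is not given in the sources used here. Symbols, positions and exon lengths were read from the table and equal those of GENCODE 29 for 58735 genes, and its transcripts supplied GC content for 58676.

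Counts were analysed in R (4.3.3) with edgeR (4.0.16): TMM scaling, filterByExpr with a minimum count of 10 (13720 genes with 99.39% of the counts), and a goodness-of-fit test with dispersion 0 (counting error) or at the trended dispersion, with Benjamini-Hochberg adjustment and a threshold of 0.05. Deviations and SDs used log2 of CPM + 0.5, and TPM used the exon length. GC content was compared for genes of at least 10 CPM in the mean. Chi-square per gene between tumours was 12.2 to 156, so none was a copy of another. Totals of 11160546 to 17265754 counts set the counting error, and without molecular identifiers this is a lower bound on the error.

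Genes were named by a rule: the 15 highest nuclear coding genes by CPM and by TPM, the 5 highest non-coding or mitochondrial genes, up to 4 members and those at 0 of each list, 15 always-named RAS pathway and cancer genes, the 20 and 10 most variable genes, and the 5 steadiest at 50 CPM or more. Members outside these limits were chosen after their values were seen. The 40 lists (658 entries, 654 found) and the members were chosen with earlier results of these data known. Some listed genes are not reported here. Alternatives were RLE or library-size scaling, library size without mitochondrial genes, no filter or a mean of 1 CPM, at most 1 count in place of 0, ranks by TPM, a trend from all 22 tumours, DESeq2 (1.42.0) and leaving out each tumour in turn.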

Additional observations from a re-analysis of the deposited data

Results flagged for a closer look

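A value was singled out where the gap between the highest or lowest of the 6 tumours and its neighbour, on the log2 scale for expression, exceeded 0.625 of the whole range. Chance alone singles out about 1 group in 20 where groups are not chosen by their values. The genes examined included those named above for their large spread among these same tumours. The number singled out therefore cannot be set against that rate. Of 96 genes, 40 list sums and 6 library measures examined, 46 were singled out, of which 39 belonged to Vehicle replicate 1, 5 to Vehicle replicate 2, 1 to Vehicle replicate 3 and 1 to Vehicle replicate 6.

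Vehicle replicate 1 was high for EEF1A1 (11473 CPM), RPL8 (2873 CPM), RPL13A (2426 CPM), B2M (723 CPM), CDKN2A (266 CPM) and NRAS (162 CPM). It was low for the mucins MUC4 (942 CPM), MUC5AC (146 CPM), MUC5B (128 CPM) and MUC16 (83.7 CPM). It was low for ACTG1 (1020 CPM, against 1733 to 2181 CPM), MT-CO1 (8231 CPM), MT-ND4 (2704 CPM), KEAP1 (99.8 CPM), ERBB2 (68.7 CPM), SMARCA4 (34.9 CPM) and STK11 (10.1 CPM, against 20.3 to 22.9 CPM). Genes with GC-rich transcripts that were low in it were HSPG2 (19.3 CPM), COL1A1 (19.3 CPM), POLR2A (17.3 CPM), PKD1 (15.9 CPM), PRR12 (4.38 CPM), MEGF6 (2.98 CPM), FCGBP (2.54 CPM) and SLC34A3 (0.876 CPM).

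List sums of Vehicle replicate 1 were low for mitochondrially encoded genes (46550 CPM), tumour suppressors (1976 CPM), structural RNAs (1629 CPM), mucous genes (1566 CPM), immediate early genes (745 CPM), MAPK output (493 CPM), alveolar type 2 genes (435 CPM), mesenchymal genes (177 CPM), foregut and gut genes (109.9 CPM), fibroblast and pericyte markers (23.8 CPM, of which COL1A1 made 19.3 CPM) and fat markers (22.5 CPM). The sum for MHC class I genes was high (841 CPM), with B2M the largest part. Ribosomal protein genes took 7.37% of its counts and its median correlation with the others was 0.913.

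Vehicle replicate 2 was low for KRT6A (49.5 CPM), S100A8 (5.73 CPM) and TFPI2 (5.73 CPM), and for the sums of basal and squamous genes (690 CPM, against 2106 to 4081 CPM) and of replication-dependent histones (174 CPM, against 338 to 404 CPM). Vehicle replicate 6 was high for SFTPB (16.9 CPM, against 0.378 to 1.13 CPM). Vehicle replicate 3 had the fewest genes with a count, 23234, against 25036 to 25761 in the others.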

How the results depend on the processing

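The count of genes varying beyond the trend was 435 with all 6 tumours, 288 to 362 when 1 tumour was left out, 226 with a trend from all 22 tumours and 8 as DESeq2 dispersion outliers, and 348 to 518 under the other scalings and filters. The count beyond counting error was 12819, 19814 with no filter on low counts, where more genes were tested, and 11661 to 12724 with 1 tumour left out. Coding genes at 0 numbered 2984, and 3069 to 3444 with 1 tumour left out. The top 50 shared by every tumour numbered 20, 31 ranked by TPM and 20 to 31 with 1 tumour left out. Of the 20 variable genes 15 kept their call in all 11 alternatives, and the other 5 lost it without Vehicle replicate 2. Leaving out Vehicle replicate 1 is among the 11, and a call there was a condition for choosing the 20 genes. None of the 11 left out Vehicle replicates 1 and 2 together. The summed levels of the 40 lists stayed within 1 SD of the main value under RLE and library-size scaling and with each tumour left out. The lists were not recomputed on library size without mitochondrial genes, a smaller total that raises the CPM of nuclear genes. The levels of the 47 genes recomputed stayed within 1 SD too, with 5 exceptions on that smaller total. It put JRKL at 62.7 CPM, UBE2Q1 at 281 CPM, CDK5RAP2 at 147 CPM, VOPP1 at 148 CPM and PTTG1IP at 335 CPM. Leaving out 1 of 6 tumours moves a mean by less than 1 SD whatever the values, apart from changes in scaling. Those settings are therefore no test of the levels. Genes removed by the filter on low counts were not tested for spread. No paired analysis was possible because only 1 group was analysed.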
